A study of Mus musculus with 6 samples.

Results

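The genes described here code for the heat shock proteins of the cytosol, nucleus and mitochondria and for the J-domain proteins (DnaJ or Hsp40 family) that work with them, measured by RNA-seq in a mouse leukaemia. They were chosen by name alone: every row of the deposited gene table whose symbol starts with Hspa, Hspb, Hspd, Hspe, Hsph, Hsp9 or Dnaj, without 14 rows named as pseudogenes (-ps) and without 7 chaperones of the endoplasmic reticulum (Hspa5, Hsp90b1, Hspa13, Dnajb9, Dnajb11, Dnajc3 and Dnajc10). This gave 67 genes of 55401 in the table. The rule itself uses no expression value, but it was set with earlier results of these data known. Of the 67 names, 3 (Hspb11, Hspbp1 and Hspbap1) belong to proteins that are not themselves heat shock proteins, and they are given apart. The series holds 6 bone marrow libraries, each from a different mouse that carried a secondary transplant of a HoxA9/Meis1 leukaemia. In 3 mice (62, 63 and 87) lymphoid leukaemic stem cells (Lym) had been transplanted and were recovered, and in the other 3 (56, 57 and 91) the transplanted and recovered cells were Lin-cKit+ progenitors (Lin-). All 6 mice thus share the leukaemia and the second transplant, none is a healthy or untransplanted control, and strain, age and sex are not given in the sources used here. Below, a library is called by its group and mouse number, and every log2 fold change is Lym minus Lin-, so that a positive value means a higher level in Lym.

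Heat shock proteins are molecular chaperones, proteins that bind unfolded or partly folded chains and let them reach their native state. Hsp70 proteins hold and release short stretches of a chain in a cycle driven by ATP. J-domain proteins bring clients to Hsp70 and start ATP hydrolysis, nucleotide exchange factors such as the Hsp110 proteins reset the cycle, and Hsp90 takes over signalling kinases and transcription factors late in folding. Hsp60 and Hsp10 form the folding chamber of the mitochondrial matrix, and small heat shock proteins hold aggregation-prone proteins without ATP. Part of the set is made at all times and part is switched on by heat shock factor 1 (HSF1), which binds repeated GAA and TTC units in promoters. Many oncogenic kinases of leukaemia cells are known Hsp90 clients.

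Each deposited value is a read count that the authors scaled by the size factor of its library, called a normalized count here. They trace back to 18537700 to 22634286 reads assigned to genes per library, and 3 reads, taken as the limit of detection, correspond to a normalized count between 2.64 and 3.36. Across all tested genes the log2 values of Lym 87 correlated at 0.965 to 0.979 with the 3 Lin- libraries. With Lym 62 and Lym 63 they correlated at 0.927 and 0.948. Lym 63 correlated about as well with Lin- (0.944 to 0.961) as with Lym 62 (0.958). Lym 62 correlated at 0.919 to 0.943 with Lin-. Lym 87 was thus closer to Lin- than to its own group, but the Lym group was loose as a whole. The results that turn on Lym 87 are therefore given with and without it. Lym 62 was made from 1 ng of RNA and the other libraries from 2 ng. The defining B cell markers Pax5 and Cd79a were at or near 0 in all 6 libraries, while the early lymphoid receptor gene Il7r had 424, 82.8 and 14.3 normalized counts in Lym 62, 63 and 87 and 2.65 to 4.13 in Lin-. Cd79b, of the same list, went against it, with 255, 28.0 and 244 in Lym and 414, 45.8 and 284 in Lin-. The summed level of 12 early B cell markers was 14.2 to 73.9 CPM in Lym and 4.95 to 22.1 in Lin-, and Cd79b made up most of it in Lin- 56, Lin- 91 and Lym 87. That of 10 myeloid progenitor markers was 3642 to 4005 in Lym and 4471 to 7920 in Lin-, and Mpo made up most of it in every library. Of these markers 8 had a log2 fold change below 0, while Cebpa and Cebpe went against them, at 0.32 and 0.86. Of 6 platelet and megakaryocyte markers Ppbp and Gp1bb were at 0, and the sum, mostly Itga2b, was 2.53 to 26.8 in Lym and 1.35 to 2.41 in Lin-. Of 8 stroma and endothelium markers only Pecam1, which blood progenitors also express, reached a normalized count above 50, and the sum was 329.5 to 449 against 252 to 304. Sums over 8 erythroid and 8 T and NK cell markers stayed at or below 1.98. The part of these differences in the values below was not tested, and in bulk RNA fewer cells of a type and less RNA per cell cannot be told apart.

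No heat shock or J-domain gene passed the test between Lym and Lin- with all 6 libraries, and most of the measured members had log2 fold changes near 0. Of the 67 genes, 50 reached a normalized count of 10 in at least 3 libraries and were tested, each of them through libraries of both groups. A fit across all 14273 genes that reached that level (limma on log2 of the normalized count + 2, with Benjamini-Hochberg adjustment) called 0 of the 50 at an adjusted p under 0.05, where it called 0.0% of all genes. At an unadjusted p under 0.05 limma had 3 of the 50 (Dnajc13, Dnajc28 and Hspb11) against 10.2% of all genes. On the recovered reads, edgeR called 0, with 1 at an unadjusted p under 0.05 (10.1% of all genes), limma-voom called 0, with 1 (9.54%), and DESeq2 called 0, with 2 (5.93%). DESeq2 called genes elsewhere, 0.962% of those with an adjusted p as higher in Lym and 0.2% as higher in Lin-. In the authors' deposited table, 0 of the 61 members with an adjusted p passed 0.05 and the lowest was 0.182, for Dnajc28, where 0.32% of all genes passed.

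The fitted log2 fold change was within 0.5 of 0 in 44 of the 50 genes, a share of 88.0% against 77.3% of all tested genes. It lay below 0 in 30 of 50 (60.0%, against 51.3% of all genes), with a median of -0.05 beside -0.01 over all genes. The highest library was less than 2 times the lowest in 39 of the 50 members, and less than 1.5 times in 22. Among the 22 members with a mean normalized count of at least 1000 it was below 2 times in 22, and the same held for 89.9% of all genes at that level. The median SD of the log2 values over the 6 libraries was 0.23 for members and 0.32 for all tested genes.

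Without Lym 87 the picture differed. This library was singled out from the same values that are tested here. Adjusted p-values and calls without it, here and below, are therefore a description and no independent support for a difference. limma then called 9.57% of all genes (5.48% higher in Lym and 4.09% higher in Lin-), and 2 of the 50 members: Dnajc28, higher in Lym, and Hspe1, higher in Lin-. The number of members with an unadjusted p under 0.05 went from 3 to 12, and 25.9% of all genes had one. The median of the 50 members moved to -0.11, while that of all genes was -0.01.

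**Figure D1:**
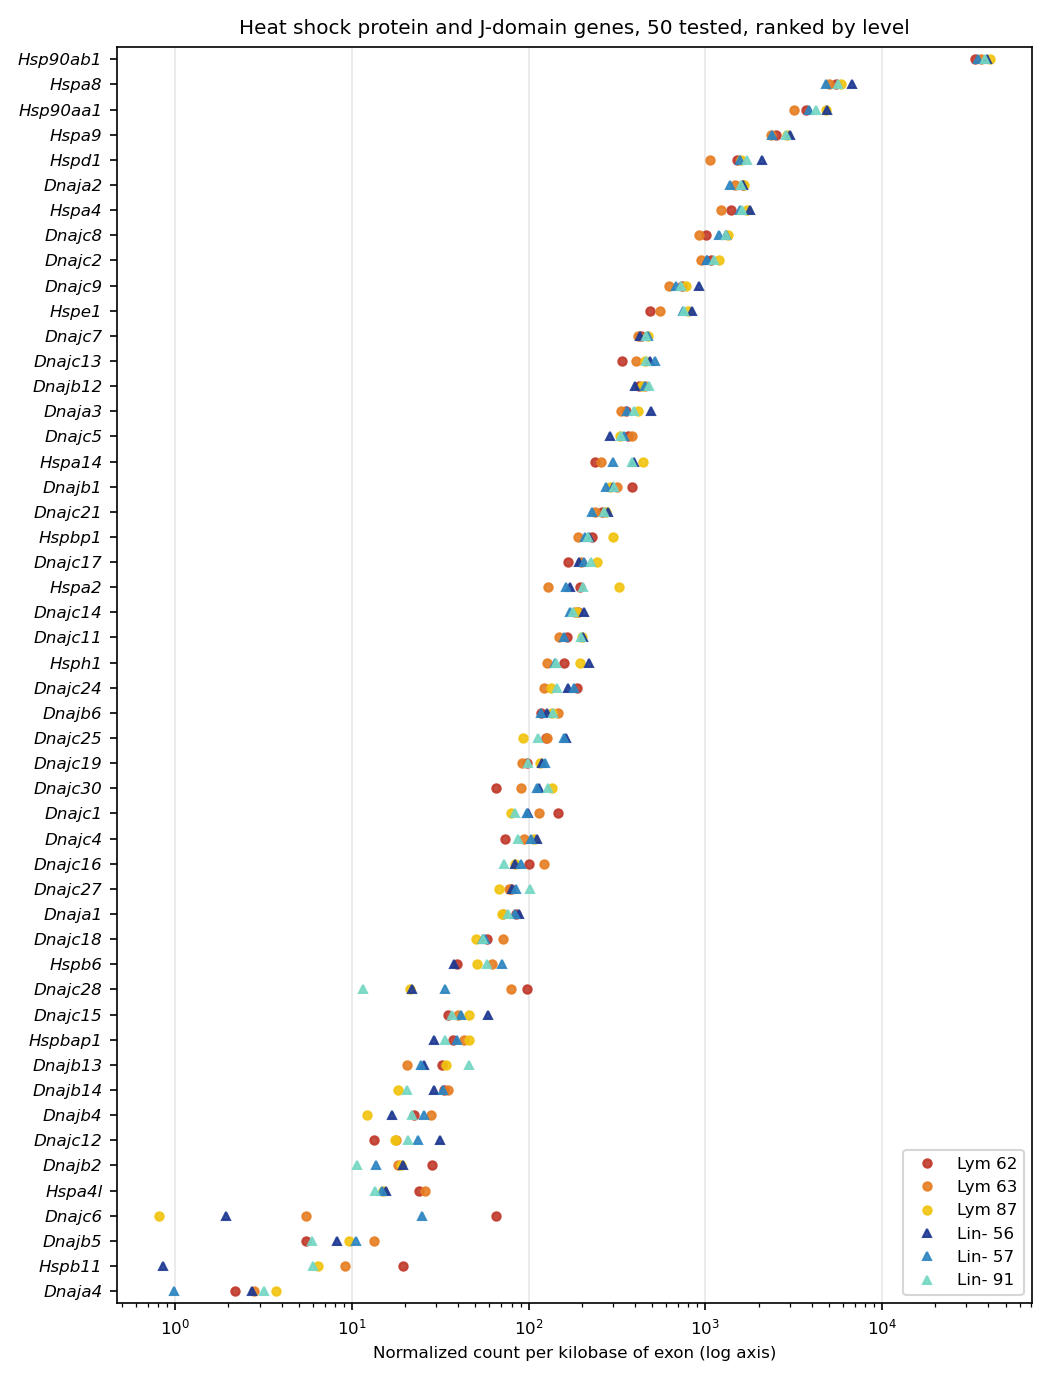
Normalized count per kilobase of exon (log axis) of the 50 tested genes, ranked by their mean over the 6 libraries. Circles are the 3 Lym mice and triangles the 3 Lin- mice, and the values of Dnajc6 and Hspb11 at 0 are left off the log axis. The top of the list spans little between libraries, while Dnajc28, Dnajc6 and Hspb11 spread most widely.

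Hsp90 dominated the set. Hsp90ab1, the constitutive cytosolic Hsp90 beta, had 100355, 109104 and 123057 normalized counts in Lym 62, 63 and 87, against 117922, 104907 and 114741 in Lin- 56, 57 and 91. The 2 groups overlapped, and the fitted ratio of Lym to Lin- was 0.983 with a 95% interval of 0.784 to 1.23 (limma adjusted p = 0.961). This 1 gene took 48.4 to 52.7% of all reads assigned to the 67 members, and the 4 strongest members (Hsp90ab1, Hspa8, Hsp90aa1 and Hspa9) took 71.7 to 74.1%. All 67 together made up 0.985% and 0.998% of the gene reads in Lym 62 and 63, 1.2% in Lym 87, and 1.23%, 1.06% and 1.11% in Lin- 56, 57 and 91, so that Lym 87 sat with the Lin- libraries.

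Hsp90aa1, the stress-inducible Hsp90 alpha, had 14538, 12531 and 18920.2 in Lym against 19084, 15169.6 and 16683 in Lin-. Lym 62 and 63 lay below every Lin- library and Lym 87 lay between them. The log2 fold change was -0.16 ± 0.17 (SE) with a limma adjusted p of 0.744, and without Lym 87 it was -0.32 ± 0.13 with an adjusted p of 0.156. Per kilobase of exon, Hsp90ab1 was 8.1 to 11.4 times as high as Hsp90aa1 in the 6 libraries. The Hsp90aa1 value is the less certain of the pair, because 49.8% of its 38-base windows, the length of 1 read, occur in transcripts of other genes, most of them in the processed copy Gm12346, against 7.4% for Hsp90ab1.

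Hspa8, the constitutive cytosolic Hsp70 (Hsc70), was the second gene by level per kilobase. Its normalized counts were 23634, 21651 and 25218 in Lym and 28989.9, 20749 and 24137 in Lin-, with both extremes in Lin-. The fitted ratio was 0.961 (95% interval 0.764 to 1.21, limma adjusted p = 0.904). Its level and rank are uncertain, because 42.6% of its 38-base windows occur in other genes, most of them in Gm15459. Hspa14, an Hsp70 of the ribosome-associated complex, had 961, 1045 and 1792 in Lym and 1605, 1214 and 1556 in Lin-. Lym 62 and 63 were under all Lin- libraries and Lym 87 was over all of them. Its log2 fold change was -0.25 ± 0.24 with all libraries (limma adjusted p = 0.721) and -0.53 ± 0.15 without Lym 87 (adjusted p = 0.0629). Hspa2, an Hsp70 best known from male germ cells, ranged from 341 in Lym 63 to 862 in Lym 87, and both extremes were Lym. For that gene the sign of the log2 fold change turned with Lym 87, from 0.18 ± 0.31 to -0.16 ± 0.22.

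The classical heat-inducible Hsp70 genes were nearly silent in the counts. Hspa1a had 3, 2 and 0 reads in Lym and 1, 2 and 0 in Lin-, so no library passed 3 reads. Hspa1b had 5, 10 and 7 reads in Lym and 25, 11 and 0 in Lin-, and it missed the level needed for testing. Hspa1l, a testis form, had at most 2 reads in a library, but 71.9% of its exons overlap Gm10501 on the opposite strand. Hspa12a and Hspa12b, distant relatives of Hsp70, had at most 2. Levels of the inducible pair are uncertain: 68.8% of the 38-base windows of Hspa1a and 65.9% of those of Hspa1b occur in other genes, chiefly in each other, and how reads with several matches were counted is not given in the sources used here. The widely expressed Jund, 52.6% of whose exons overlap a gene on the opposite strand, was between 0 and 11.2. That overlap is 19.0% for Hspa1a and 0.0% for Hspa1b. The part of overlaps and shared windows in these low counts was not tested.

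The 2 genes lie on the minus strand of chromosome 17 (GRCm38.p6), Hspa1a at 34969190-34972156 and Hspa1b at 34956436-34959238, and their promoters show how alike they are. The RefSeq sequences of the 130 bases before each start, at chr17:34972157-34972286 and chr17:34959239-34959368, are identical at 129 of 130 bases, and 247 of 250 bases match over the longer window. They are shown because these are the best-known HSF1-driven promoters of the set, and capitals mark a pair of facing GAA and TTC units (GAANNTTC), placed 104 to 97 bases before the start.
Hspa1a: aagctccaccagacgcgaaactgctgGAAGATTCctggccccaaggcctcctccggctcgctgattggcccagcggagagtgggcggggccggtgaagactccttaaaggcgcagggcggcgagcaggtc
Hspa1b: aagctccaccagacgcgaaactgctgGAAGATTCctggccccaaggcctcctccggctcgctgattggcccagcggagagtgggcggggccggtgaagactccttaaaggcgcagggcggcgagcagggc

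The Hsp110 proteins, which exchange nucleotide on Hsp70, did not move as a block. Hspa4 (Apg2) had 7723, 6761 and 9545 in Lym and 9857, 8721 and 8948 in Lin-. Lym 62 and 63 lay below all Lin- libraries and Lym 87 lay among them. The log2 fold change was -0.21 ± 0.14 (limma adjusted p = 0.613), and -0.34 ± 0.11 without Lym 87 (adjusted p = 0.0916). Hsph1 (Hsp105), which HSF1 induces, had 1153, 922 and 1427 in Lym and 1598, 1027 and 1042 in Lin-. Its groups overlapped throughout, with a fitted ratio of 0.961 and a 95% interval of 0.677 to 1.37.

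Hspa4l (Apg1), the scarcest of the 3, went the other way, with 275, 298 and 172 in Lym and 179.97, 169 and 156 in Lin-. Only Lym 62 and 63 exceeded the Lin- libraries. Its log2 fold change was 0.52 ± 0.26 (limma adjusted p = 0.524) and 0.76 ± 0.23 without Lym 87 (adjusted p = 0.0717). Per kilobase, the ratio of Hspa4 to Hspa4l was 58.5 and 47.3 in Lym 62 and 63, 116 in Lym 87, and 114, 107 and 119.5 in Lin-. The ratio in Lym 87 thus lay in the Lin- range.

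The mitochondrial Hsp60 and Hsp10 genes had the lowest log2 fold changes among the 22 members with a mean of at least 1000, without passing the test when all libraries were used. Hspd1, which codes for Hsp60, had 3986, 2806 and 4195 in Lym (3662 ± 749, SD, n = 3) and 5526, 4149 and 4567 in Lin- (4748 ± 706, n = 3). Lym 62 and 63 were below every Lin- library, and Lym 87 was just above Lin- 57. The fitted ratio was 0.765 with a 95% interval of 0.577 to 1.02 (limma adjusted p = 0.5), and the log2 fold change went from -0.39 ± 0.18 to -0.49 ± 0.17 without Lym 87 (adjusted p = 0.105).

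Hspe1, which codes for Hsp10, the lid of the Hsp60 chamber, had 713, 817 and 1169 in Lym and 1245, 1104 and 1116 in Lin-. Again Lym 62 and 63 were lowest, and Lym 87 was above Lin- 57 and Lin- 91. The log2 fold change was -0.39 ± 0.19 (limma adjusted p = 0.519). Without Lym 87 it was -0.59 ± 0.14 and passed (adjusted p = 0.0316), while each other library left out gave -0.24 to -0.42, none of them called. Counts of both genes may include reads of processed copies, since 48.1% of the 38-base windows of Hspd1 and 27.3% of those of Hspe1 occur in other genes. Hspa9 (mortalin), the mitochondrial Hsp70, had 10859, 10142 and 12545 in Lym and 12998, 10295 and 12336 in Lin-, and its fitted ratio was 0.942 (95% interval 0.763 to 1.16).

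Hspd1 (chromosome 1, 55077835-55088243, minus strand) and Hspe1 (55088132-55091307, plus strand) are neighbours on opposite strands whose gene spans overlap at their starts (GRCm38.p6). The RefSeq stretch at chr1:55088053-55088082 is shown on each gene's own strand, because it is the same DNA read from either side and holds the longest run of HSF1 units found in the set. Capitals mark that run of 18 bases, which lies 144 to 127 bases before the RefSeq start of Hspd1 and 89 to 72 bases before that of Hspe1.
Hspd1: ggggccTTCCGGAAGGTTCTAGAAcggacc
Hspe1: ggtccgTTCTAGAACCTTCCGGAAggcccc
Per kilobase of exon, the level of Hspd1 was 1.92 to 3.12 times that of Hspe1, with Lym 62 at the top and the other 5 libraries between 1.92 and 2.48.

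The same search was made in every RefSeq promoter window, which 54 of the 67 members matched (the others were Dnajc2, Dnajc5, Dnajc5b, Dnajc11, Dnajc12, Dnajc18, Dnajc22, Dnajc30, Hsp90aa1, Hsp90ab1, Hspa8, Hspa9 and Hspb2). The letters GAANNTTC or TTCNNGAA, which are their own reverse complements and so need only 1 strand, occurred within 250 bases before a start in 13 of the 54 members, and in 14.55% of all genes. The longer forms GAANNTTCNNGAA and TTCNNGAANNTTC, which are each other's reverse complements, occurred in 3 of the 54 (Hspd1, Hspe1 and Dnajb6) and in 0.51% of all genes. A longer form always contains the shorter one. A match describes letters and not binding. The stretches of Hspb1 (chr5:135887791-135887820, plus strand), Hsph1 (chr5:149636351-149636380, minus), Dnaja1 (chr4:40722333-40722362, plus) and Dnajb6 (chr5:29735843-29735872, plus) are shown for comparison with the pair above, since they cover a small heat shock protein, an Hsp110 and 2 J proteins.
Hspb1: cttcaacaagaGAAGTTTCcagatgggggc
Hsph1: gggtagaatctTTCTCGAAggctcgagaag
Dnaja1: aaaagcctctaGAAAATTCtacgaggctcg
Dnajb6: cagctccgaGAATCTTCCGGAAcgctagac
Capitals mark the matched letters. They lie 117 to 110 bases before the RefSeq start of Hspb1 and 124 to 117 before that of Dnaja1. For Hsph1 it is 54 to 47 or 33 to 26 bases, and for Dnajb6 46 to 34 or 127 to 115, depending on the RefSeq start. By the deposited gene coordinates, the matches of Hsph1, Dnaja1 and Dnajb6 fall inside the gene, as does the run of Hspd1 above. That of Hspb1 falls before it. Hspb1 had no read in any library, while the other 3 were well above the limit of detection in all 6.

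**Figure D2:**
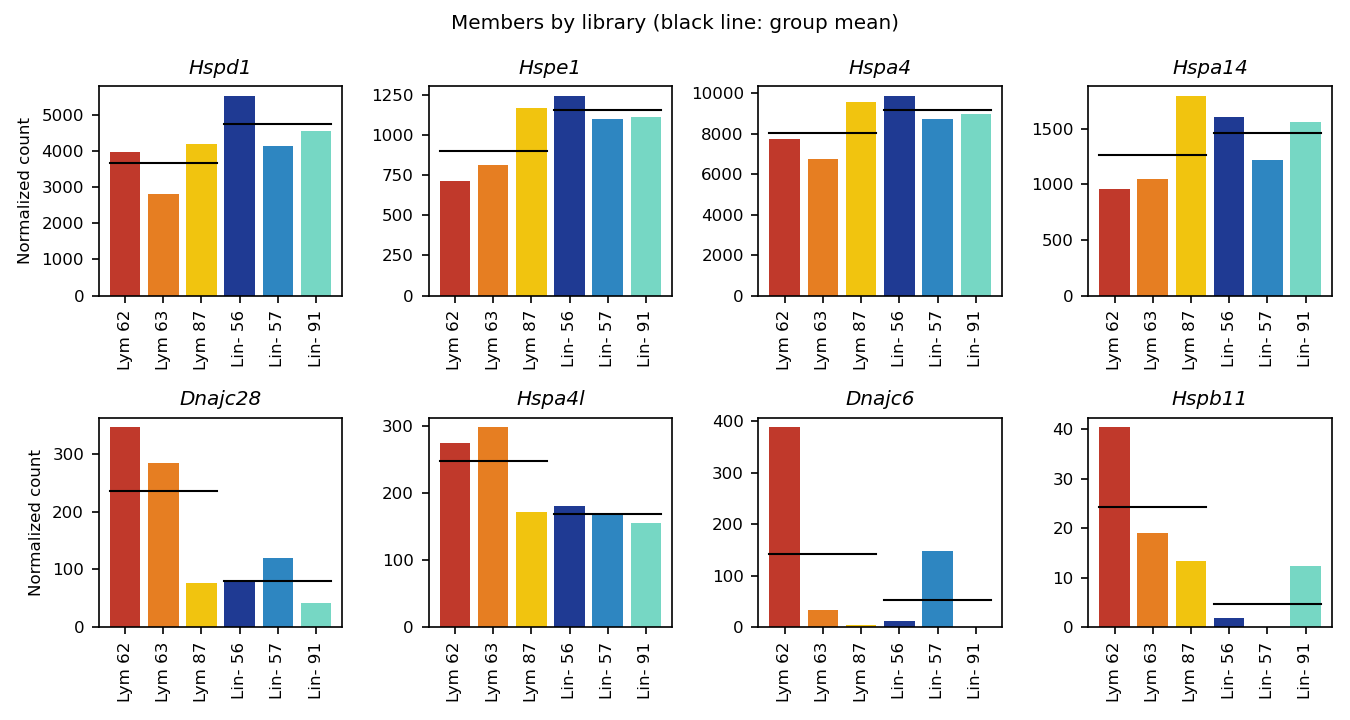
Normalized counts of 8 members in each library, as bars from 0, with the group mean as a black line. In Hspd1, Hspe1, Hspa4 and Hspa14 the Lym 62 and 63 bars are below all Lin- bars, in Dnajc28 and Hspa4l they are above them, and Lym 87 is inside the Lin- range in these 6 except in Hspa14, where it is above.

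Small heat shock proteins were almost absent. Of the 7 genes, Hspb1, Hspb2, Hspb3 and Hspb8 had no read in any of the 6 libraries, and Hspb7 and Hspb9 had at most 1 read in a library. Each 0 allows up to 3 reads, which is 0.133 to 0.162 CPM, for counting error only. For Hspb1 (Hsp27), 53.4% of its 38-base windows occur in other genes, mainly in Hsp25-ps1, so reads of it could have been dropped. Hsp25-ps1 itself held almost none, with 0, 0 and 0 reads in Lym and 0, 1 and 1 in Lin-. Hspb6 (Hsp20) was the 1 small heat shock gene that could be tested. It had 90.8, 143 and 117 in Lym and 87.3, 163 and 133 in Lin-, with overlapping groups and a fitted ratio of 0.931 (95% interval 0.557 to 1.56).

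The 3 genes that carry an Hsp name without being chaperones differed from each other. Hspbp1, a nucleotide exchange factor of Hsp70, had 359 to 565 in Lym and 391.6 to 415 in Lin-, and Hspbap1, a protein that binds Hsp27, had 351 to 435 and 275 to 372. Their log2 fold changes were 0.13 ± 0.20 (-0.04 ± 0.18 without Lym 87) and 0.31 ± 0.19. Hspb11 is a part of the intraflagellar transport machinery of cilia (IFT25), and it was the 1 member of 50 with every Lym library above every Lin- library, where 8.49% of all tested genes were so. It had 40.4, 19.0 and 13.3 in Lym and 1.76, 0 and 12.4 in Lin-, which are 36, 17 and 14 reads against 2, 0 and 12. The gap between Lym 87 and Lin- 91 was thus 14 against 12 reads. The log2 fold change of 2.33 ± 0.84 (limma adjusted p = 0.451) depends on the added 2 and was 1.23 with 10 added.

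The DNAJA proteins, the general Hsp70 partners closest to bacterial DnaJ, differed in level much more from one another than between groups. Dnaja2 was the strongest J protein per kilobase, with 4868, 4399 and 4899 normalized counts in Lym and 4877, 4115 and 4760.0 in Lin-. The ratio was 1.03 with a 95% interval of 0.861 to 1.24. Dnaja1, an HSF1 target, had 728, 614 and 609.8 in Lym and 756, 722 and 662 in Lin-, and its fitted ratio was 0.911 (95% interval 0.721 to 1.15). Per kilobase Dnaja2 was 16.5 to 23.3 times as high as Dnaja1, where 21.7% of the windows of Dnaja1 occur in other genes. Part of that ratio comes from the exonic length used, 8629 bases for Dnaja1 and 2975 for Dnaja2. Dnaja3 (Tid1), the mitochondrial form, had 1310.3 to 1622 in Lym and 1412 to 1938 in Lin-. Dnaja4 was near the limit of the test in all libraries, with 7.85 to 13.3 in Lym and 3.52 to 11.3 in Lin-. Its level is uncertain, because 44.1% of its exons overlap Wdr61 on the opposite strand.

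Among the 11 DNAJB genes 8 were tested, and none had groups that separated. Of all tested genes 8.49% had every Lym library on top and 7.08% every Lin- library, so 0 of 8 is near the background. Dnajb1 (Hsp40), the main J protein of the heat shock response, had 1237, 1010.4 and 919 in Lym and 955, 883 and 974 in Lin-. Lym 62 was the highest and the other 5 libraries lay close together. Its fitted ratio was 1.12 (95% interval 0.882 to 1.42), and without Lym 87, which was the lowest Lym library, the log2 fold change was 0.26 ± 0.14 with a limma adjusted p of 0.306. Dnajb2, a J protein that guides clients to the proteasome, had the largest difference of the class, 121, 77.2 and 80.0 against 82.9, 58.1 and 45.4. Lin- 56 exceeded 2 of the 3 Lym libraries, and the log2 fold change of 0.58 ± 0.36 had an adjusted p of 0.585.

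Dnajb12 and Dnajb14 are J proteins of the endoplasmic reticulum membrane with the active domain facing the cytosol. Dnajb12 had 1425 to 1532 in Lym and 1342 to 1609 in Lin-. Dnajb14 had 521 and 553 in Lym 62 and 63 but 288 in Lym 87, with 322 to 512 in Lin-, and its log2 fold change was 0.05 ± 0.29 with Lym 87 and 0.35 ± 0.22 without it. Dnajb4 had the same order inside Lym, 196, 246 and 107, with 147, 225 and 191 in Lin-. Dnajb6, an anti-aggregation J protein, was even, at 712 to 886 in Lym and 716 to 834 in Lin-. Dnajb5 had 32.5 to 79.4 in Lym and 35.1 to 62.5 in Lin-. Dnajb13, a J protein of cilia and sperm tails, had 55.95 to 92.4 in Lym and 66.9 to 124.8 in Lin-. Of the 3 that were not tested, Dnajb3 had no read, Dnajb8 had 1 read in 1 library, and Dnajb7 had 3, 0 and 1 reads in Lym and 13, 5 and 4 in Lin-.

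The 6 mitochondrial DNAJC genes included Dnajc28, a member of the set with an unadjusted p under 0.05. Dnajc28 (chromosome 16, 91614254-91619026) had 347, 284 and 76.2 in Lym and 77.6, 119.7 and 41.3 in Lin-. Lym 62 and 63 were the 2 highest libraries by more than 2 times, and Lym 87 was below Lin- 56 and Lin- 57. The log2 fold change was 1.41 ± 0.60 with all libraries (limma unadjusted p = 0.0457, adjusted p = 0.483). Without Lym 87 it was 2.08 ± 0.42 and passed (adjusted p = 0.0199), while leaving out any other single library gave 1.0 to 1.76 and no call. DESeq2 gave an adjusted p of 0.0791, its lowest among the members. None of the 38-base windows of Dnajc28 occurs in another gene.

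The 5 remaining mitochondrial J protein genes had log2 fold changes below 0, from -0.34 to -0.13, and none reached an unadjusted p under 0.05. Of all tested genes 51.3% lay below 0 and 10.2% reached that p in limma. Dnajc30, which binds the ATP synthase, had 109, 149.9 and 225 in Lym and 189.7, 185 and 212 in Lin-, with Lym 87 the highest of all 6. Its log2 fold change was -0.34 ± 0.30, with -0.60 ± 0.27 without Lym 87 and -0.09 without Lym 62, and 26.2% of its exons overlap Bud23 on the opposite strand. Dnajc19 and Dnajc15, both J proteins of the inner membrane import motor, had 369 to 467 against 399 to 498, and 228 to 300.1 against 238 to 382. Dnajc11, of the outer membrane and cristae complex, had 1595 to 2146 in Lym and 1700.3 to 2154 in Lin-, and Dnajc4 had 90.8 to 132 and 108 to 138.

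The 12 DNAJC genes assigned to the endoplasmic reticulum and other membranes included 2 of the 3 members with every Lin- library above every Lym library, a pattern that 7.08% of all tested genes had. Dnajc13 (RME-8), an endosomal J protein that acts on clathrin and retromer coats, had 4004, 4846 and 5401 in Lym and 5830.4, 6164 and 5497 in Lin-. The gap between Lym 87 and Lin- 91 was small, and the log2 fold change was -0.30 ± 0.13 (limma unadjusted p = 0.0491, adjusted p = 0.487). Dnajc27, a small GTPase with a J domain, had 401, 395 and 347 in Lym and 411, 434 and 515 in Lin-, and its log2 fold change of -0.25 ± 0.17 had an adjusted p of 0.627.

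In the same class, Dnajc1, a J protein of the translocon, had 1705, 1329 and 927 in Lym and 1158, 1141 and 978 in Lin-. Dnajc16 had 654, 794 and 541 in Lym and 543, 586 and 469 in Lin-. In both genes Lym 62 and 63 were above all Lin- libraries and Lym 87 was not, and the log2 fold changes without Lym 87 were 0.47 ± 0.15 and 0.44 ± 0.17 (limma adjusted p = 0.0904 and 0.148). Dnajc25 had 569, 579.6 and 421 in Lym and 737, 723 and 512 in Lin-, with a log2 fold change of -0.32 ± 0.21, and -0.18 ± 0.19 without Lym 87. Dnajc5, the cysteine string protein, had 2288 to 2675 in Lym and 1999 to 2395 in Lin-. Dnajc14 and Dnajc18 had log2 fold changes of 0.02 ± 0.13 and 0.09 ± 0.20.

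Dnajc6 (auxilin), which works with Hsc70 to strip clathrin from vesicles and is best known from neurons, varied more than any other tested member. It had 388, 32.5 and 4.76 in Lym and 11.5, 147 and 0 in Lin-, which are 346, 29, 5, 13, 167 and 0 reads. The spread inside each group was wider than the difference between them, with a log2 fold change of 1.5 ± 1.75 and a limma adjusted p of 0.774. It was 2.87 ± 1.59 without Lym 87 and -0.06 without Lym 62. Its relative Gak, the auxilin made in all tissues, is among the J proteins with other names described below. Dnajc5b had no read, Dnajc5g at most 1 read and Dnajc22 at most 2 reads in a library.

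The 8 DNAJC genes of the ribosome, nucleus and cytosol were mostly strong and even. Of their 8 log2 fold changes 7 lay below 0, where 51.3% of all genes did. Dnajc2 (zuotin), the J protein that places Hsp70 at the ribosome exit, had 5440.4, 4759 and 5999 in Lym and 5124, 5155 and 5598 in Lin-, with a fitted ratio of 1.02 (95% interval 0.841 to 1.23). Scaled to total reads or without Lym 87 its sign turned, to -0.02 and -0.06. Dnajc7, which passes clients between Hsp70 and Hsp90, varied least of all members, with the highest library at 1.14 times the lowest. Dnajc8, a splicing factor, had 2565, 2352 and 3412 in Lym and 3358, 3056 and 3326 in Lin-. Lym 62 and 63 were below the Lin- libraries and Lym 87 above them, with log2 fold changes of -0.24 ± 0.15 with Lym 87 and -0.40 ± 0.11 without it (limma adjusted p = 0.586 and 0.0544).

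Dnajc9, a histone chaperone, had 1483 to 1835 in Lym and 1621 to 2195 in Lin-. Dnajc21, of ribosome assembly, had a fitted ratio of 0.996 with a 95% interval of 0.802 to 1.24. Dnajc12, a cochaperone of the aromatic amino acid hydroxylases, was the third gene with all Lin- libraries on top. It had 59.4, 79.4 and 78.1 in Lym and 140.3, 106 and 92.8 in Lin-, and its log2 fold change of -0.62 ± 0.30 was the lowest among the 50 (limma adjusted p = 0.519). Dnajc17 and Dnajc24 had log2 fold changes of -0.05 ± 0.21 and -0.16 ± 0.24.

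**Figure D3:**
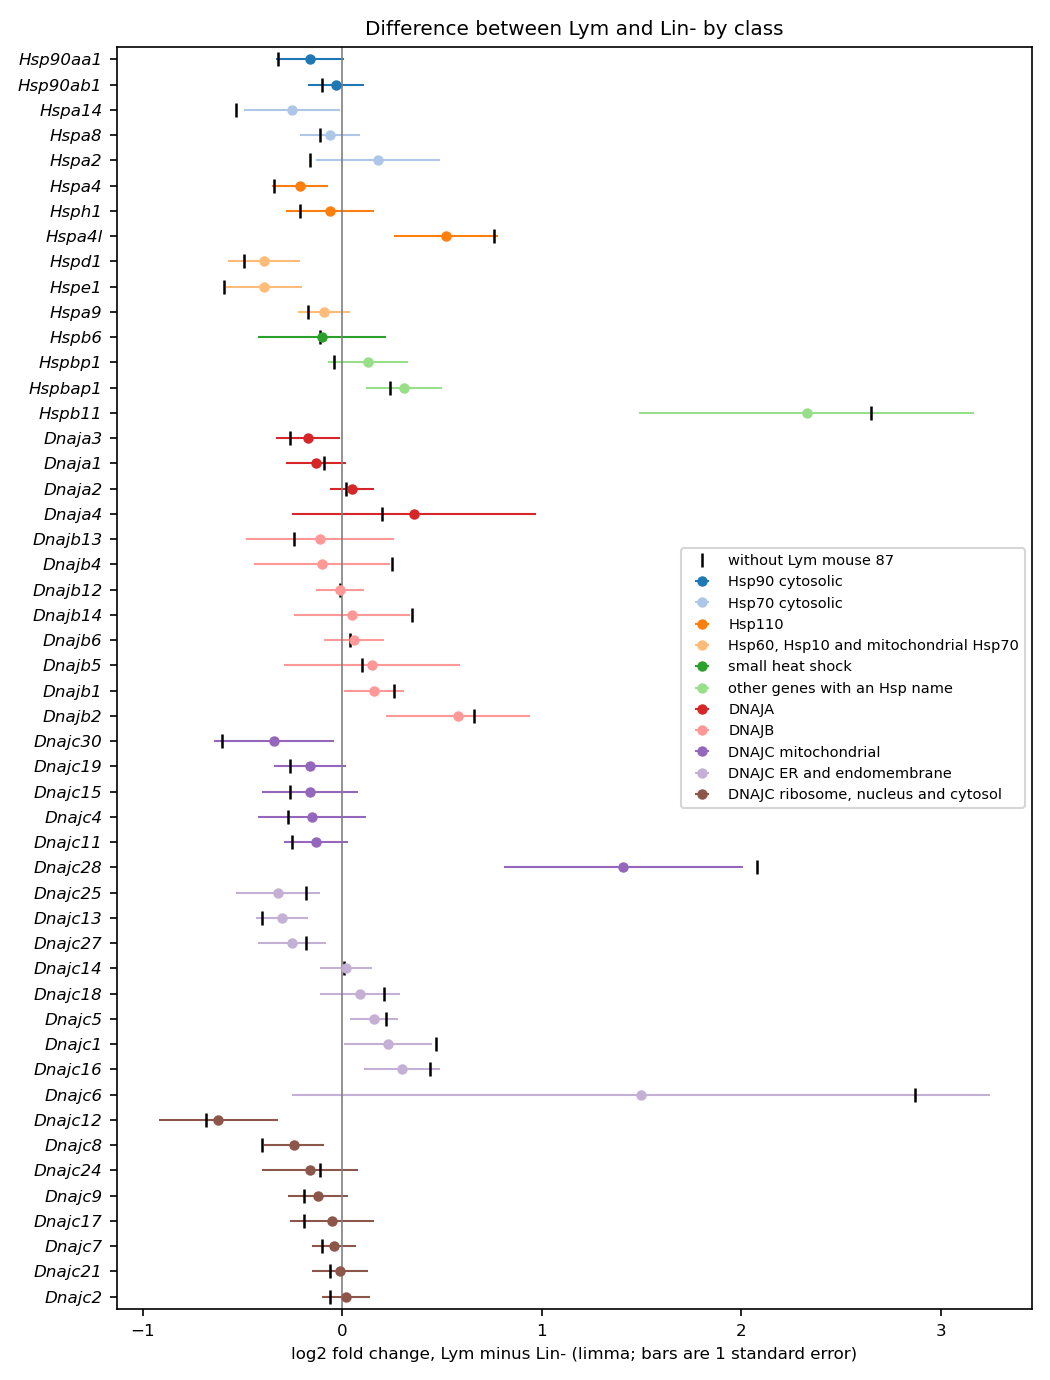
limma log2 fold change (Lym minus Lin-) of the 50 tested members, grouped by class, with bars of 1 standard error. Black ticks are the same value without Lym 87. Most points lie within 0.5 of 0, and Hspb11, Dnajc6 and Dnajc28 are the only points above 1.

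The order of the libraries was alike in many members. Lin- 56 was the highest of the 6 in 17 of 50 members (34.0%, against 17.3% of all tested genes) and Lym 63 the lowest in 16 (32.0%, against 18.6%). Lym 63 lay below the whole Lin- range in 23 members (46.0%, against 33.3% of all genes) and Lym 62 in 18 (36.0%, against 35.1%). Lym 87 lay below it in 10 (against 24.7% of all genes) and inside it in 27 (54.0%, against 48.0%). Without Lym 87, the 2 groups did not overlap in 12 members with Lin- higher and 9 with Lym higher, where 21.7% of all genes did so in each direction. The 12 were Hsp90aa1, Hspa4, Hspa14, Hspd1, Hspe1, Dnaja3, Dnajc8, Dnajc12, Dnajc13, Dnajc19, Dnajc27 and Dnajc30. The 9 were Hspa4l, Hspb11, Dnajb1, Dnajb14, Dnajc1, Dnajc5, Dnajc16, Dnajc18 and Dnajc28.

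**Figure D4:**
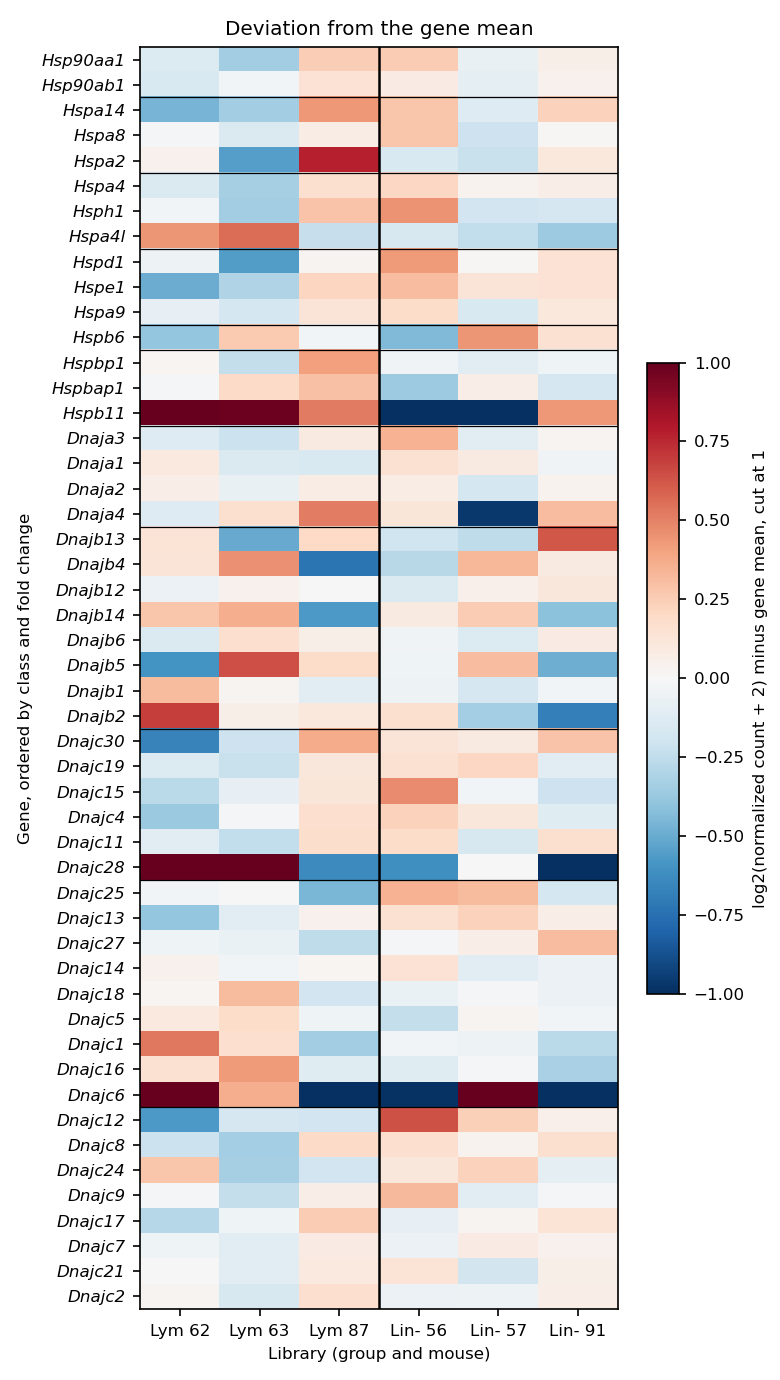
Difference of each library's log2(normalized count + 2) from the gene's mean over the 6 libraries, for the 50 tested members in the same order as the fold changes. Colours are cut at 1 in either direction, the thick line divides Lym from Lin-, and thin lines divide classes. The Lym 63 column is mostly blue in the Hsp90, Hsp70, Hsp110 and Hsp60 rows, and the Lym 87 and Lin- 56 columns are mostly red there.

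Of 13 members that HSF1 is known to induce (Hspa1a, Hspa1b, Hspa8, Hsph1, Hsp90aa1, Hsp90ab1, Hspb1, Hspd1, Hspe1, Hspa4l, Dnaja1, Dnajb1 and Dnajb4), 10 were tested. Of the 10, 8 had a log2 fold change below 0, where 51.3% of all genes did, and the median was -0.08. limma called 0, where it called 0.0% of all genes. At an unadjusted p under 0.05 it had 0 of the 10, against 10.2% of all genes, which is near that share for so few genes. Without Lym 87 the median was -0.11 and 1 of the 10 was called, Hspe1, where 9.57% of all genes were called, so the share was near the background. Hsf1 itself had 829, 838 and 1076 in Lym and 943, 899 and 937 in Lin- (log2 fold change -0.03 ± 0.15), and Hsf2 had 243, 283 and 364 against 454, 304.5 and 375 (-0.35 ± 0.23). Hsf3 had no read. Immediate early genes, which respond to handling of cells, were measured beside them: of 12 genes 11 were tested, 8 lay above 0 with a median of 0.22, and Egr1 had 652, 493 and 338 in Lym against 174, 224 and 299 in Lin- (limma unadjusted p = 0.00598, adjusted p = 0.42). Fos, Jun and Atf3 lay below 0, where 51.3% of all genes did. In 3 of the 11 (Btg2, Egr1 and Junb) every Lym library was on top, against 8.49% of all tested genes. Only Atf3 had every Lin- library on top, against 7.08%, at 1.12, 11.2 and 4.76 in Lym and 23.8, 17.6 and 19.6 in Lin-. Without Lym 87 the median of the 11 was 0.33, and limma called Btg2, Egr1 and Zfp36 as higher in Lym (adjusted p = 0.0115, 0.0186 and 0.0287), where 5.48% of all genes were. Their part in the heat shock values was not tested.

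All 14 genes of the TRiC chaperonin, the cytosolic folding chamber for actin and tubulin, and of prefoldin, which feeds it, had log2 fold changes below 0, against 51.3% of all genes. They ran from -0.46 to -0.07 with a median of -0.27, beside -0.01 for all genes. limma called 0 of the 14, and 3 had an unadjusted p under 0.05, against 10.2% of all genes. Cct6a had the smallest, with 4871, 4323 and 5288 in Lym and 6813, 5816 and 6164 in Lin- (log2 fold change -0.38 ± 0.12, unadjusted p = 0.0129, adjusted p = 0.437). In 4 of the 14 (Cct4, Cct6a, Cct8 and Vbp1) every Lin- library was above every Lym library, against 7.08% of all tested genes. Without Lym 87 the median was -0.40 and 2 were called, both higher in Lin-, where 4.09% of all genes were.

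Of 9 mitochondrial folding and protease genes 8 were below 0, against 51.3% of all genes, with a median of -0.21. Trap1, the mitochondrial Hsp90, had 2673, 2523 and 3349 in Lym and 3736, 3475 and 3909 in Lin- (log2 fold change -0.39 ± 0.13, limma unadjusted p = 0.0189, adjusted p = 0.45), with no overlap. Grpel1, the nucleotide exchange factor of Hspa9, had 526, 675 and 947 against 1268, 946 and 870.5 (-0.54 ± 0.24, unadjusted p = 0.0495). Both were called without Lym 87 (limma adjusted p = 0.0236 and 0.0418), the 2 calls of the 9 genes, where 4.09% of all genes were called as higher in Lin-. Of 13 cochaperones of Hsp90 and Hsp70 12 were below 0, against the same 51.3% of all genes, with a median of -0.23 and 0 called. Without Lym 87 limma called 2 of the 13 as higher in Lin-, against the same 4.09% of all genes. The smallest unadjusted p was that of Unc45a, a myosin chaperone and the only one of the 13 above 0, at 0.27 ± 0.13.

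The 6 BAG nucleotide exchange factors had a median of 0.0 with 3 below 0, and Bag1 had the smallest unadjusted p (log2 fold change -0.29 ± 0.14, limma unadjusted p = 0.0645). The 3 J proteins with other names described here (Gak, Sec63 and Hscb) had log2 fold changes from -0.03 to 0.10, and Gak, the highest, had a limma unadjusted p of 0.389. Of the 7 endoplasmic reticulum chaperones left out of the set, 6 were below 0, against 51.3% of all genes. The median was -0.22, and limma called 0. In 2 of the 7 every Lin- library was above every Lym library, where 7.08% of all tested genes were so. Without Lym 87 the median was -0.07 and 1 was called as higher in Lin-, where 4.09% of all genes were.

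**Figure D5:**
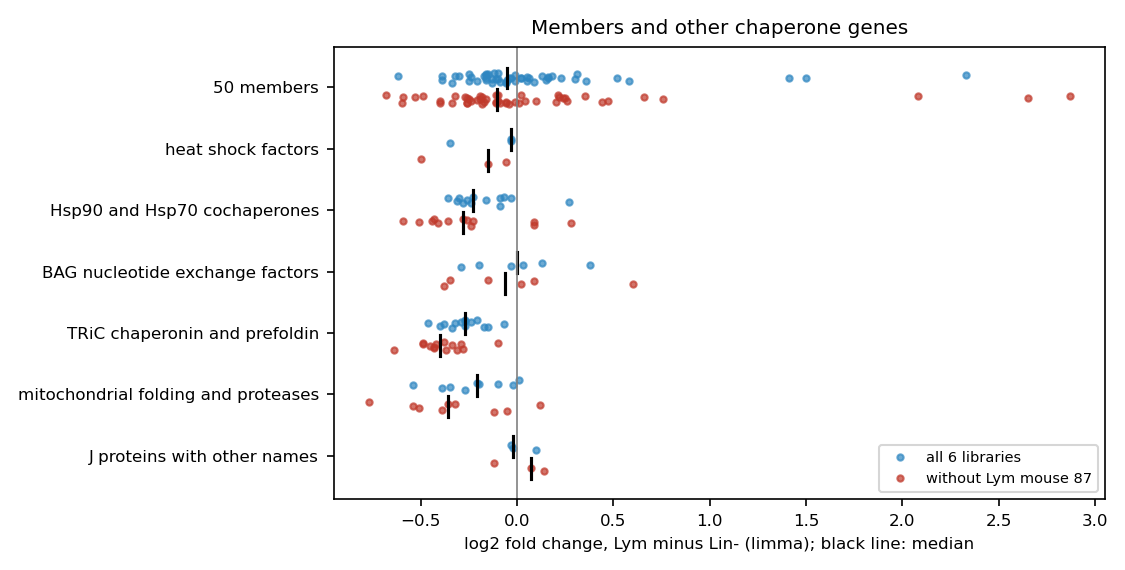
limma log2 fold changes of the 50 members and of 6 lists of other folding genes, each dot 1 gene, with the median as a black line. Blue dots use all 6 libraries and red dots leave out Lym 87. All 14 TRiC and prefoldin genes lie below 0 in both fits, while the members lie on both sides.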

How the data were processed

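Total RNA of 6 bone marrow samples was made into stranded libraries (1 or 2 ng of RNA, 12 PCR cycles, reads of 38 bases), per the labels. Per the submitters' processing notes, the genome build was GRCm38.p6, STAR 2.6.1d and featureCounts 1.6.4 were among the tools, as were Trim Galore 0.6.4 and DESeq2. The annotation release and the strand setting of the counting are not given in the sources used here. The deposited library columns hold a signal, which is the read count of a gene scaled by the library's size factor. Every value up to 10000 is a whole multiple of 1 unit within 0.01, from which reads were recovered. The deposited table also gives the authors' log2 fold changes, scores (Wald statistics) and p-values; the deposited log2 sign was turned to Lym minus Lin-.

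Genes with a value of at least 10 in 3 libraries (14273) were tested on log2(value + 2) with limma 3.58.1 (trend, Benjamini-Hochberg, threshold 0.05). A fold change on that scale understates the change of low genes. Intervals are 95% t intervals of the limma coefficient. Rows with a gene ID but no gene name, which hold 0.0436% of all reads, stayed in. Alternatives were edgeR 4.0.16, DESeq2 1.42.0 and limma-voom on the recovered reads, other scalings, filters and pseudocounts, and each mouse left out. The scripts were tested on simulated data. The members, lists and tests were chosen with earlier results of these data known. Named are the 2 strongest members of each class, the 6 highest and 6 lowest fold changes, the 6 smallest p-values, the 6 widest spreads, 11 classical heat shock genes, and in each other list the gene with the smallest p; further members are named to describe their class. Levels per kilobase use the exonic length of the deposited table. Windows of 38 bases were compared over GENCODE M21 transcripts, and promoters come from RefSeq (GRCm38.p6). Proteins were not analysed here. One gene of the lists is not reported here.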

Additional observations from a re-analysis of the deposited data

How the results depend on the processing

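No paired analysis was possible because the mouse numbers of the groups are not shared. Under all alternatives but leaving out Lym 87, 0 members were called. Over all genes, DESeq2 called 203, the fit with no filter 5 and the fit with 10 added 1; leaving out 1 mouse gave 0 to 1366 genes (1366 without Lym 87, 1 without Lin- 91) and 0 to 2 members. Members with Lym wholly above Lin- numbered 0 with a filter at 50 and 1 to 9 with 1 mouse left out, and those with Lin- above numbered 3 to 12. The median of the tested members ran from -0.106 without Lym 87 to 0.003 without Lin- 56.

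The 33 named members gave 492 values under the alternatives, of which 19, in 11 members, had the opposite sign. None of the 19 was called. Scaling to total reads gave -0.02 for Dnajc2. With 1 mouse left out, the lowest and highest values of the members that changed sign were -0.03 to 0.10 for Dnaja2, -0.03 to 0.60 for Dnaja4, -0.09 to 0.04 for Dnajb12, -0.13 to 0.49 for Dnajb5, -0.06 to 0.11 for Dnajc2, -0.06 to 3.11 for Dnajc6, -0.10 to 0.04 for Hsp90ab1, -0.17 to 0.07 for Hspa8, -0.35 to 0.09 for Hspb6, -0.04 to 0.28 for Hspbp1 and -0.21 to 0.15 for Hsph1. The cause was not tested. Members outside the 33 were left out of this count, and some of them changed sign as well. Without Lym 87, Hspa2 went from 0.18 to -0.16 and Dnajb4 from -0.10 to 0.25. Dnajc28 and Hspe1 were called only without Lym 87 (2.08 and -0.59). With 3 libraries a group, even the interval of Hsp90ab1 runs from 0.784 to 1.23, and members under the filter could not be compared.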
